A study of Mus musculus with 4 samples.

Results

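Olfactory receptor gene clusters are long stretches of the mouse genome in which genes for odorant receptors stand side by side. Islands of acetylated histone H4 lysine 16 (H4K16ac) were taken in 3 such intervals of genome build mm9, which were chosen by position. They were chromosome 2 from 85000001 to 90000000, chromosome 7 from 109600001 to 115500000 and chromosome 9 from 37500001 to 40200000, 13.6 Mb in all. An island is a broad enriched region that the program SICER joins from neighbouring windows. Every island that overlapped an interval was counted, which gave 102 of 40570 islands in embryonic stem cells (ESC) and 110 of 48278 in neural progenitor cells (NPC). Together these were 212 of 88848 islands. All cells were of the 46c line, an ES cell line with a GFP reporter at Sox1, a gene that is switched on in neural progenitors. The ESC were undifferentiated, and the NPC were sorted for GFP after 5 days of differentiation in NB27 and Neuro2 supplements. Each cell type had 1 H4K16ac library and 1 input library, from chromatin cut with micrococcal nuclease, so no difference between the cell types had a replicate check and no p-value was computed.

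Odorant receptors are G protein-coupled receptors on the cilia of olfactory sensory neurons. Each such neuron expresses a single receptor gene from a single allele, and the rest of the family stays silent, in those neurons under repressive histone marks. Other tissues, ES cells and neural progenitors among them, have little use for the family. H4K16ac is a mark laid down chiefly by the acetyltransferase MOF (KAT8) and is known from active genes and enhancers. Expression was not measured here, so the silence of these genes in ESC and NPC was not tested.

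In RefSeq's GRCm38.p6 annotation, used for gene names and their order, the longest runs of protein-coding olfactory receptor genes on these chromosomes held 222 receptor genes on chromosome 2, 193 on chromosome 7 and 95 on chromosome 9. Receptor genes were counted as 1 run where at most 30 other protein-coding genes lay between neighbours. The runs on chromosomes 2 and 9 were nearly pure, with 3 other genes in each. Those on chromosome 2 were the desaturase family gene Fads2b and the genes Pramel7 and Pramel6, and those on chromosome 9 were Vwa5a, AW551984 and Tmem225. The run on chromosome 7 was mixed, with 55 other genes (22.2% of its protein-coding genes). These included the 5 beta-globin genes from Hbb-bt to Hbb-y, which encode haemoglobin chains, a block of 11 genes from Trim6 to Trim30d, mostly of the TRIM family of antiviral factors, and a block of 21 genes from Fam160a2 to Gm1966. That last block held the general transcription factor gene Taf10, the integrin-linked kinase gene Ilk and the lysosomal protease gene Tpp1. A block of 6 genes from Rbmxl2 to Ovch2 held the synaptotagmin gene Syt9. Because that build differs from mm9, no gene was assigned to an island, and the ends of the runs were not placed on the intervals. The intervals may therefore also hold genes from outside the runs.

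The bases in front of the receptor genes were poor in G and C. Of the 510 receptor genes of the runs, 435 (85.3%) had an entry in RefSeq's table of gene starts, and the 250 bases before the start were read. Their median GC content was 32.8%, from 15.2% to 51.6%, against 55.2% over all 17492 protein-coding genes with an entry. The dinucleotide CpG, the main site of DNA methylation, occurred a median of 1 time per 250 bases in receptor genes and 10 times over all genes. None of the 435 receptor genes had 10 or more CpG, against 50.4% of all genes. The annotated start of many receptor genes may be that of the coding sequence, since 70.6% of the 510 gene models were shorter than 1000 bp. The same count for the other genes of the runs is incomplete, because 47 of 61 had an entry, under 80%. Those 47 had a median GC content of 47.2% and a median of 2 CpG, and 23.4% had 10 or more. These values also lay under those of all genes, so low values were not particular to receptor genes. The sequences below are shown to let this contrast be seen, with each CpG in capitals, on the gene's own strand, from GRCm38.p6. For each chromosome, the receptor gene nearest to the median CpG count and GC content of its run is given, followed by the other gene of the run that had the most CpG among those with an entry. The latter were chosen as the highest and do not stand for the other genes.
Olfr1128 (chromosome 2, minus strand): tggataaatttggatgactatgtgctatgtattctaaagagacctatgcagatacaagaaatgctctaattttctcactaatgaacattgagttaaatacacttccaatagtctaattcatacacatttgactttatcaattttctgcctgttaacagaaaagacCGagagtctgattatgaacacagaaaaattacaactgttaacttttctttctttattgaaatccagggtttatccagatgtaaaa
Fads2b (chromosome 2, minus strand): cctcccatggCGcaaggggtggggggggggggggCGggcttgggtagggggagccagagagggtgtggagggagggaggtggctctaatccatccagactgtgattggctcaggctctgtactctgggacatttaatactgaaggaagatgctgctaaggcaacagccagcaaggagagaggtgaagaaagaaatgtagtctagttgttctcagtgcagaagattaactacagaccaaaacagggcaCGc
Olfr666 (chromosome 7, minus strand): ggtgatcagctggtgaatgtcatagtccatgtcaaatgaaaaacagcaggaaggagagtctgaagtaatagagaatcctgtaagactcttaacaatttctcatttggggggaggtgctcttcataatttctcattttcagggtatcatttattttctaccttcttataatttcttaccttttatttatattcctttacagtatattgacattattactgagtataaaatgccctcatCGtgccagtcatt
Syt9 (chromosome 7, plus strand): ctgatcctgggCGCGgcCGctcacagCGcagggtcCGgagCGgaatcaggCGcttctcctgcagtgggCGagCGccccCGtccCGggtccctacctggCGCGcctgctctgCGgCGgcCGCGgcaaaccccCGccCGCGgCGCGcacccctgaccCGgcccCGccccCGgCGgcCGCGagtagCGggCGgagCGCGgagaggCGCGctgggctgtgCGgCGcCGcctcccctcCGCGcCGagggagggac
Olfr902 (chromosome 9, plus strand): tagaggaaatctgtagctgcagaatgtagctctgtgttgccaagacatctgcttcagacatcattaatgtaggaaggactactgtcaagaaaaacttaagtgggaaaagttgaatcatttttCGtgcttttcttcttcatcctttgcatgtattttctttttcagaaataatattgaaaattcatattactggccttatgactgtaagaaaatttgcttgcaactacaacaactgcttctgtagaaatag
AW551984 (chromosome 9, minus strand): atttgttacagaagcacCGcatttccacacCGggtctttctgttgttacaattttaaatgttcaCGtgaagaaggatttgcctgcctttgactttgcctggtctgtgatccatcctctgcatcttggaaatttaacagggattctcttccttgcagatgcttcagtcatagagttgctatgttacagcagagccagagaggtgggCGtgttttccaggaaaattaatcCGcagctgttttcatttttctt
Each receptor gene shown had 1 CpG in its 250 bases, at a GC content of 30.8% for Olfr1128, 34.8% for Olfr666 and 34.4% for Olfr902. Fads2b had 3 CpG at 55.6% GC, Syt9 40 CpG at 80.4% and AW551984 5 CpG at 42.8%.

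The intervals held few H4K16ac islands in either cell type, fewest on chromosome 2. In ESC they held 7.5 islands per Mb (exact Poisson 95% interval 6.12 to 9.10), against 17.1 per Mb (16.7 to 17.5) on the rest of the 3 chromosomes. In NPC they held 8.09 per Mb (6.65 to 9.75), against 22.7 (22.3 to 23.2). These intervals cover counting error only, treat islands as independent and give no variation between cultures. Islands covered 1.88% of interval bases in ESC and 2.90% in NPC, whereas they covered 8.64% and 15.2% of the rest. The rest of a chromosome was counted up to the last island of either list.

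The chromosome 2 interval had 11 ESC islands and 14 NPC islands in 5 Mb. That came to 2.2 per Mb in ESC (1.098 to 3.94) and 2.8 per Mb in NPC (1.53 to 4.70). The rest of chromosome 2 had 7.78 times as many per Mb in ESC and 7.65 times as many in NPC. Covered bases were 0.272% of the interval in ESC and 0.724% in NPC, against 8.89% and 14.8% elsewhere on the chromosome. Of the 35 other windows of 5 Mb laid outward from the interval on chromosome 2, none had as few ESC islands, the lowest having 20 and the median window 78. In NPC, 2 of the 35 windows had fewer islands and 1 had the same number.

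The chromosome 7 interval was the richest of the 3 intervals. It held 70 ESC islands, 11.9 per Mb (9.25 to 15.0), and 74 NPC islands, 12.5 per Mb (9.85 to 15.7). The rest of the chromosome had 1.41 times as many per Mb in ESC and 1.84 times as many in NPC. Among the 24 other windows of 5.9 Mb on the chromosome, 7 had fewer ESC islands and 8 had fewer NPC islands. Next to its own surroundings the difference was larger, since the 5 Mb on each side held 25.5 ESC and 37.2 NPC islands per Mb.

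The chromosome 9 interval lay between the others, with 21 ESC islands (7.78 per Mb, 4.81 to 11.9) and 22 NPC islands (8.15 per Mb, 5.11 to 12.3). Elsewhere on chromosome 9 there were 17.5 and 24.2 per Mb. Of the 44 other windows of 2.7 Mb, 4 had fewer ESC islands and 8 had fewer NPC islands. Each of the 3 intervals had fewer islands per Mb than the rest of its chromosome and than the 5 Mb on each side, in both cell types.

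**Figure D1:**
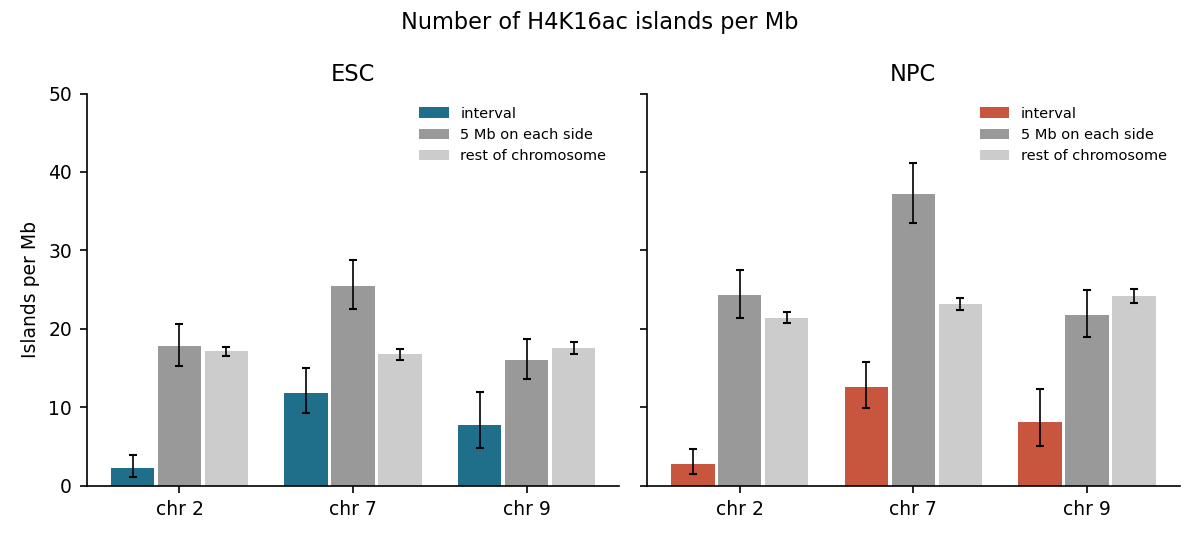
Islands per Mb (vertical axis) in ESC and NPC for each interval, the 5 Mb on each side of it and the rest of its chromosome, with exact Poisson 95% intervals as error bars. The chromosome 2 bars are lowest, at 2.2 per Mb in ESC and 2.8 in NPC, and the chromosome 7 bars are the highest of the intervals, at 11.9 and 12.5.

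The excess of NPC over ESC islands was smaller in the intervals than on the rest of these chromosomes. NPC islands numbered 1.08 times the ESC islands in the intervals and 1.33 times on the rest. The interval ratio rests on 102 ESC and 110 NPC islands. No counting error was computed for these ratios, so whether they differ beyond it was not tested. Bases covered in NPC were 1.54 times and 1.76 times those covered in ESC. The order of the cell types in the intervals rests on the settings: 73 ESC and 67 NPC islands were left with 500 kb off both ends, 37 and 27 at or above the median reads of their list, 102 and 81 with lists of equal length, and 97 and 91 with gaps of up to 2000 bp joined. On chromosome 2 alone, the ratio was 1.27 in the interval and 1.25 on the rest. Reads in islands were scaled to the same total for each list (RPM). Per Mb, the intervals had 111 RPM in ESC and 90.4 in NPC, a ratio of 0.811, and the rest had 448 and 495 RPM, a ratio of 1.104. The intervals held 0.151% of all ESC island reads and 0.123% of all NPC island reads. With 1 library per cell type, library depth and cell type cannot be told apart in these ratios.

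Within each interval the islands were not evenly spread. On chromosome 2, 9 of the 14 NPC islands lay in the first 500 kb, up to 85262600, where no ESC island was called. The other 5 NPC islands were scattered over the remaining 4.5 Mb, which held all 11 ESC islands. With 500 kb taken off both ends, the interval had 9 ESC islands (2.25 per Mb) and 3 NPC islands (0.75 per Mb), the reverse of the order over the whole interval. The 500 kb just outside held 12 ESC and 22 NPC islands before the interval and 11 and 22 after it. NPC islands thus lay on both sides of the first edge.

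On chromosome 9, the last 200 kb of the interval, from 40000001, held 6 of the 21 ESC islands and 11 of the 22 NPC islands. They covered 15.5% of this stretch in ESC and 30.9% in NPC. In the 5 windows of 500 kb before it, coverage was between 0.28% and 1.44% in ESC and between 0.32% and 1.88% in NPC. With 500 kb taken off both ends, 11 ESC islands (6.47 per Mb) and 6 NPC islands (3.53 per Mb) were left.

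On chromosome 7, islands gathered in 3 stretches, which were picked out after the islands were seen and are therefore described without a test. These were 109600001 to 110100000, 112480001 to 112961000 and 114350001 to 115000000, 1631 kb in all. They held 47 of the 70 ESC islands and 53 of the 74 NPC islands, 28.8 and 32.5 per Mb. The remaining 4269 kb of the interval held 23 ESC and 21 NPC islands, 5.39 and 4.92 per Mb, and islands covered 0.853% and 1.15% of it.

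Sharing within the stretches is given beside the 39.8% of all ESC islands that overlapped an NPC island by at least 1 base. In the first, 6 of 13 ESC islands did, near that share. In the second, 10 of 17 did, and NPC islands covered 26.4% of the bases against 11.1% in ESC. In the third, 17 ESC islands covered 10.6% and 13 NPC islands covered 8.52%, and 1 island of each list overlapped the other. The other ESC islands there lay a median of 21.2 kb from the nearest NPC island, and the other NPC islands 13.8 kb from the nearest ESC island. Outside the 3 stretches, 2 of 23 ESC islands were overlapped.

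**Figure D2:**
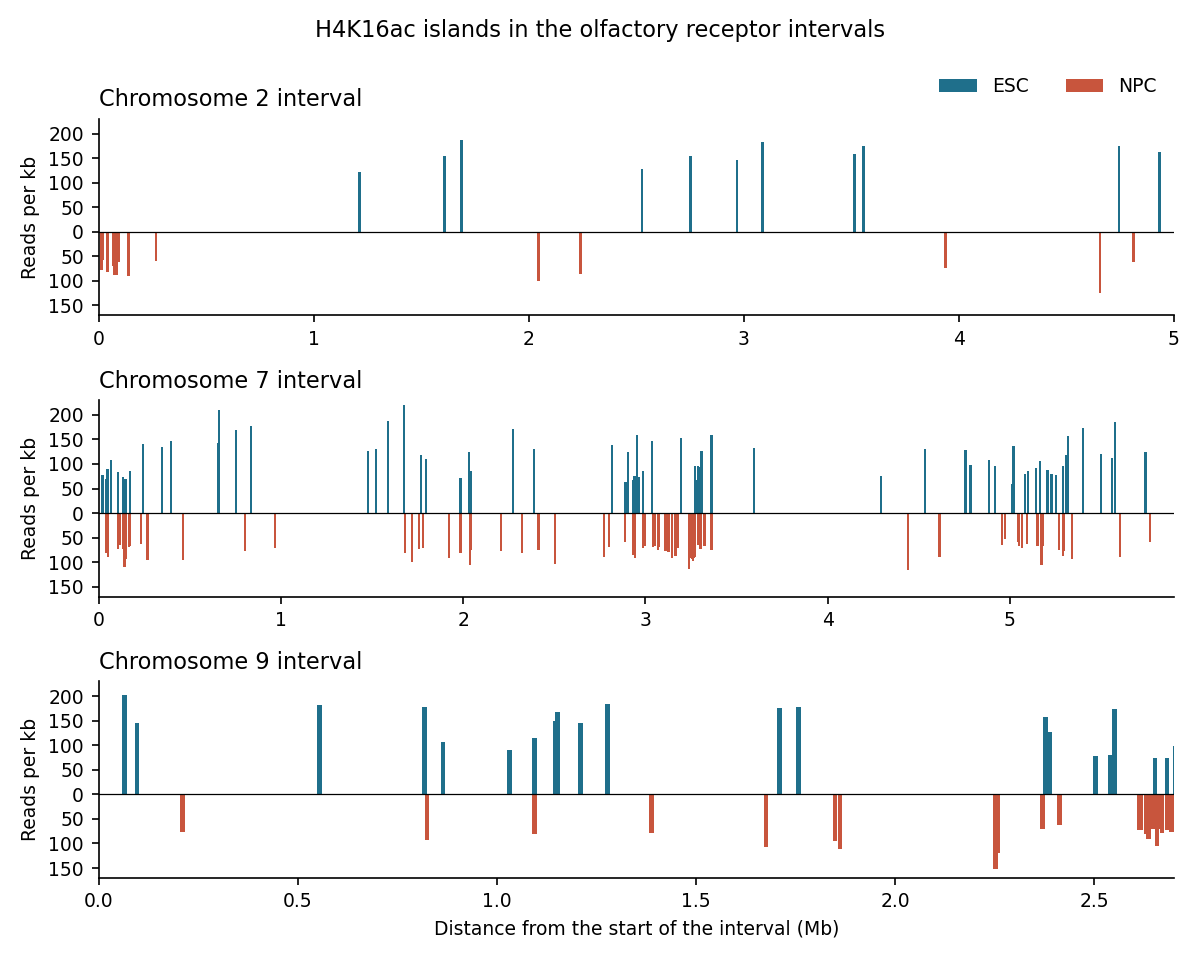
Islands of ESC (upward bars) and NPC (downward bars) along each interval, by distance from its start in Mb, with reads per kb as bar height. Bars are drawn at least 12 kb wide, wider than most islands. ESC bars on chromosome 2 are tall and scattered, NPC bars gather in the first 500 kb there, and on chromosome 9 both gather in the last 200 kb.

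Long stretches had no island of either list. The longest inside each interval were 943.2 kb on chromosome 2 (85262601 to 86205800), 699.2 kb on chromosome 7 (113189201 to 113888400) and 389.8 kb on chromosome 9 (39356601 to 39746400). By length these held rank 2 of 5252 such stretches on chromosome 2, rank 8 of 4746 on chromosome 7 and rank 15 of 4065 on chromosome 9. In NPC alone, 1777.4 kb of chromosome 2 held no island, from 85262601 to 87040000, rank 7 on the chromosome, whose longest elsewhere was 3199.8 kb. In ESC alone, the longest wholly inside the interval was 1187 kb, from 88551801 to 89738800, rank 2. A longer one, 1278.8 kb from 84927001 to 86205800, began before the interval and ran into it. The median distance between neighbouring ESC islands inside the chromosome 2 interval was 219.3 kb, against 19.6 kb elsewhere on the chromosome. In NPC it was 36.2 kb and 7.6 kb. A stretch without an island may still hold reads, since the lists give none outside islands.

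**Figure D3:**
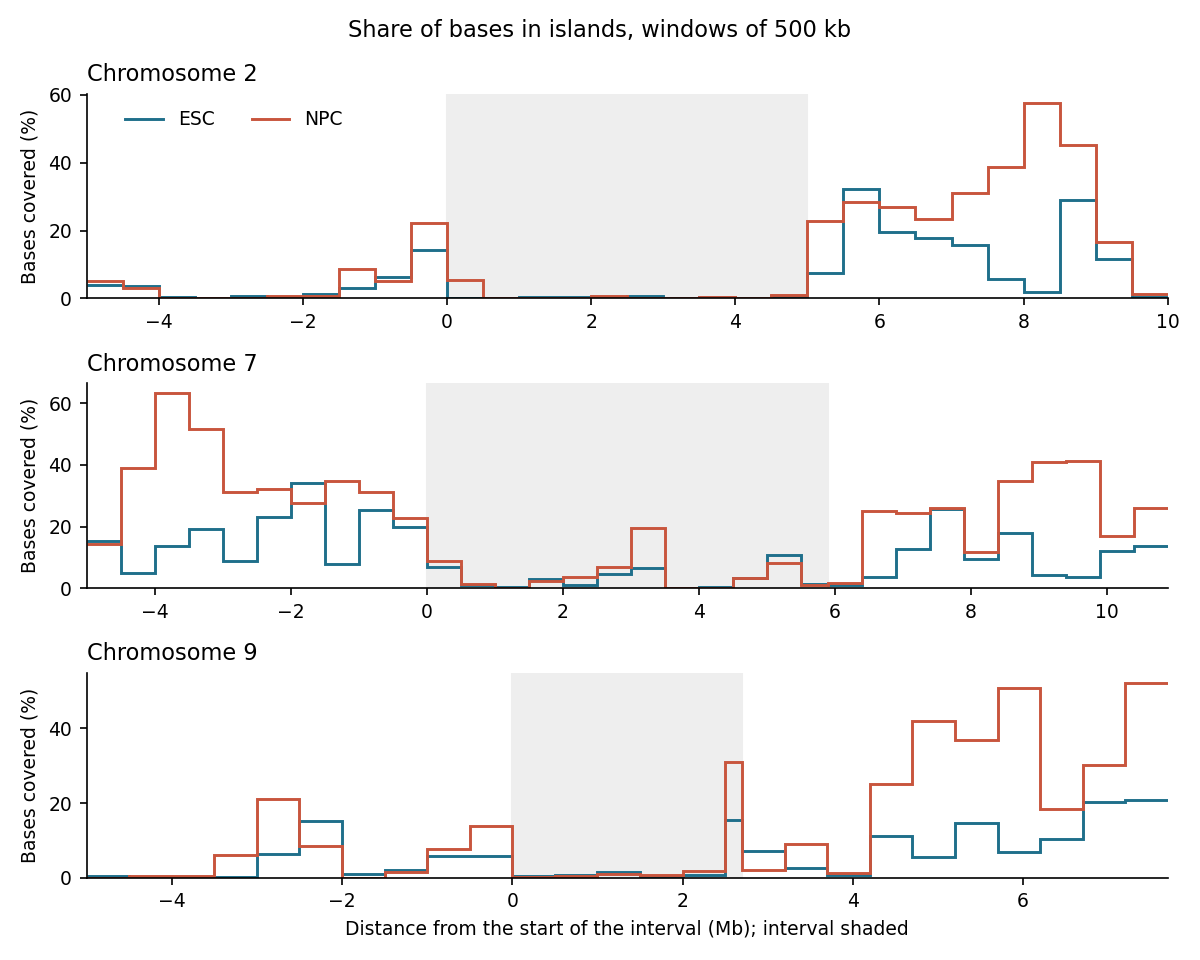
Percent of bases in islands (vertical axis) in windows of 500 kb, or shorter at an interval's end, across each interval (shaded) and the 5 Mb on each side, for ESC and NPC. On chromosome 2 the lines lie under 1% across the interval except in the first NPC window (5.32%), and on chromosome 7 they rise within the interval to 19.5% in NPC and 10.9% in ESC.

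Interval islands were narrower than those of the rest in both cell types, and in ESC they were also denser in reads. The median width was 1700 bp in ESC (600 to 10000 bp) and 2800 bp in NPC (800 to 16200 bp), against 3200 and 4600 bp on the rest. Islands of at least 8000 bp made up 2.94% of ESC and 10.9% of NPC interval islands, against 16.3% and 25.8% of the rest. ESC islands of the intervals had a median density of 124 reads per kb, those of the rest 92. In NPC the medians were 77.4 and 77.1 reads per kb. Counts were small: the ESC median was 215 reads per interval island, with a counting error of 6.82%, and the NPC median 203.5 reads, with 7.01%.

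Chromosome 2 showed this most plainly in ESC. All 11 ESC islands there had at least 120 reads per kb, between 122.5 and 186. That level was reached by 25.8% of ESC islands of all widths elsewhere on the chromosome. The widths of the 11 ran from 600 to 2400 bp with a median of 1000 bp, against a median of 3200 bp elsewhere. The 25.8% was thus not matched for width. Islands both narrow (2000 bp or less) and dense (120 reads per kb or more) were 10 of the 11, against 18.5% of all ESC islands. On chromosome 7 they were 25 of 70 and on chromosome 9 12 of 21. In NPC such islands were 3 of 110, against 1.3% of all NPC islands.

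The higher density of ESC interval islands was found among those of at most 2000 bp. Widths within that class were not equal, with an ESC median of 1200 bp in the intervals and 1400 bp on the rest. How far width accounts for the density was not tested. Of the 102 ESC islands, 58 were at most 2000 bp wide, and their median was 146 reads per kb (quartiles 125.5 and 173), against 121 (99.1 and 150) for 2311 islands of that width on the rest. Between 2000 and 4000 bp the medians were 91.2 and 87.3 reads per kb, and above 4000 bp they were 79.8 and 81.5. In NPC, islands of at most 2000 bp had 93 reads per kb in the intervals and 87.5 on the rest. Each NPC median lay within the quartiles of the other set. Over all widths, the ESC median was 154.5 reads per kb when the chromosome 7 interval was left out.

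**Figure D4:**
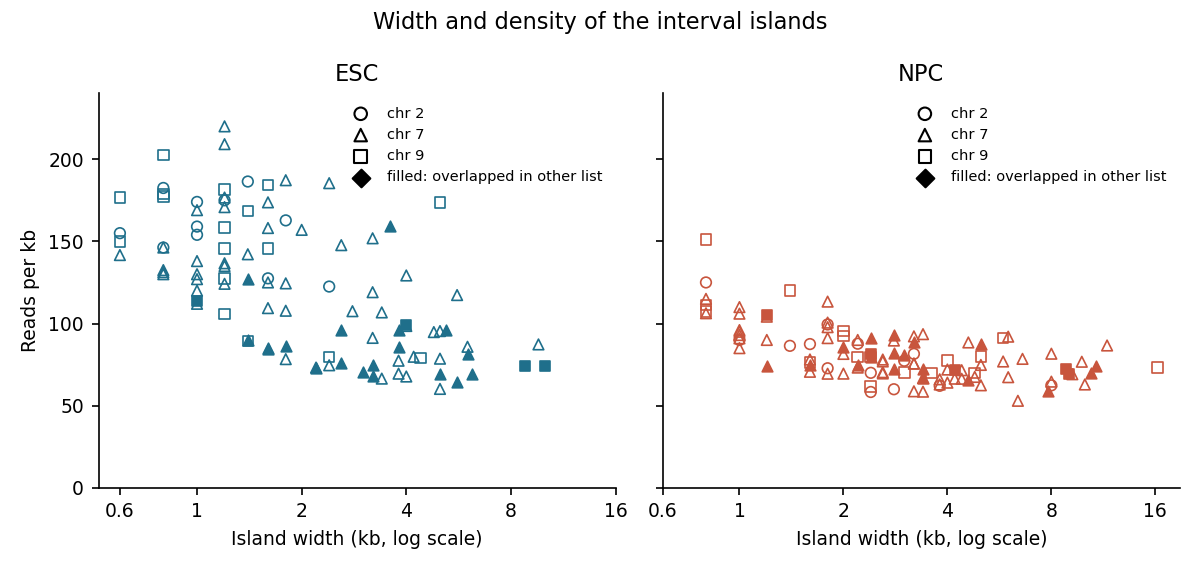
Width (horizontal, kb, log scale) and density (vertical, reads per kb) of each interval island in ESC and NPC, with symbols for chromosomes and filled symbols for islands overlapped in the other list. Narrow ESC islands reach 220 reads per kb and are mostly open symbols, whereas NPC islands stay at or under 151.

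Of the 18 islands that led their interval and list by reads, 3 for each, 12 had no counterpart in the other cell type, near the 63.0% of all islands without one. On chromosome 2 the leading ESC islands were at 86205801 to 86208200 with 294 reads (also the widest there, 2400 bp), 89927201 to 89929000 with 293 and 86682601 to 86684000 with 261. None of the 3 came within 100 kb of an NPC island, the nearest lying 117.4 kb away. The leading NPC islands were at 85087801 to 85095800 with 499 reads over 8000 bp (the widest there), 85036201 to 85039400 with 261 and 89806001 to 89809800 with 236. These 3 NPC islands had 62.1 to 81.6 unscaled reads per kb, under the 122.5 of the least dense ESC island of the interval. They were also wider, 3200 to 8000 bp against 600 to 2400 bp for the ESC islands there. Over the whole lists the median density was lower in NPC too, 76.6 reads per kb beside 93.3 in ESC.

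On chromosome 7, the ESC island with most reads was at 114801401 to 114811000, with 838 reads over 9600 bp, and no NPC island overlapped it. It was the widest ESC island of the interval and lay in the third stretch. The next were at 111364801 to 111370400 with 657 reads, 5 kb from the nearest NPC island, and 112957001 to 112960600 with 573 reads, of which 61.1% of the bases were shared. In NPC the leading island, and the widest, was at 112759201 to 112770800, with 1005 reads over 11600 bp and no ESC island. It was followed by 112897001 to 112907800 with 800 reads, 48.1% of it shared, and 112709801 to 112719600 with 752 reads and none shared. All 3 NPC islands lay in the second stretch. The densest ESC island of the intervals was at 111268401 to 111269600, with 264 reads at 220 reads per kb.

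On chromosome 9, the ESC island at 40045401 to 40050400 held 868 reads over 5000 bp, the most of any ESC island in the intervals, at 174 reads per kb. No NPC island lay within 56.8 kb of it. The next ESC islands, at 40146801 to 40156800 with 742 reads (the widest, 10000 bp) and 40177001 to 40185800 with 655 reads, shared 56% and 84.1% of their bases with NPC islands. In NPC, 40107201 to 40123400 held 1185 reads over 16200 bp, the most reads and the largest width in the intervals, with no ESC island. The other leading NPC islands were at 40178401 to 40187200 with 634 reads and 40142201 to 40151200 with 626 reads. All these lay in the last 200 kb. The densest NPC island of the intervals, at 39746401 to 39747200, had 121 reads in 800 bp, or 151 reads per kb.

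Fewer interval islands were shared between the cell types than on the rest of the chromosomes. Of 102 ESC islands, 23 (22.5%, exact 95% interval 14.9% to 31.9%) overlapped an NPC island by at least 1 base, against 43.4% of ESC islands on the rest of the 3 chromosomes and 39.8% of all. In NPC 23 of the 110 were overlapped (20.9%, 13.7% to 29.7%), against 34.4% on the rest and 34.7% of all. Such shares are not independent of how much the other list covers. NPC islands covered 2.90% of the intervals and 15.2% of the rest, and ESC islands 1.88% and 8.64%. How far coverage accounts for the lower shares was not tested. On chromosome 2 none was shared, 0 of 11 ESC islands (upper limit 28.5%) and 0 of 14 NPC islands (upper limit 23.2%). On chromosome 7, 19 of 70 ESC and 18 of 74 NPC islands were shared, and on chromosome 9, 4 of 21 and 5 of 22. Merging both lists gave 188 regions in the intervals. Both cell types had 22 of them, ESC alone had 79 and NPC alone had 87. The 22 are 11.7% of the 188, against 20.6% of merged regions in all.

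The size of this difference varied with island width. Among ESC islands over 4000 bp, 7 of 17 in the intervals were shared (41.2%, 18.4% to 67.1%), against 70.8% on the rest. Between 2000 and 4000 bp the shares were 37.0% (19.4% to 57.6%) and 36.0%, and up to 2000 bp 10.3% (3.89% to 21.2%) and 15.97%. In NPC the shares in intervals and rest were 25.8% (11.9% to 44.6%) and 38.7% over 4000 bp, 26.2% (13.9% to 42.0%) and 26.9% in the middle class, and 10.8% (3.03% to 25.4%) and 32.9% for the narrowest. ESC islands without a counterpart lay a median of 46.4 kb from the nearest NPC island, against 16 kb on the rest, and 421.8 kb in the chromosome 2 interval. For NPC islands the medians were 26 and 18.2 kb, but on chromosome 7 the order was the other way, 17.4 kb in the interval and 19.2 kb on the rest. Such distances are not independent of island number, which in NPC was 8.09 per Mb in the intervals and 22.7 on the rest. They are therefore no separate measure of sharing.

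In the 22 shared regions, RPM was mostly lower in NPC. Log2 of NPC over ESC had a median of -0.56 (order-statistic 95% interval -0.84 to -0.18), from -2.25 to 1.79, beside -0.49 over all 14478 shared regions of the genome. A value above 0 was found in 3 of 22 regions, against 22.1% of all shared regions. The exact interval of the read share lay below 0 in 16 regions (72.7%, beside 70.6% of all shared regions), above it in 2 (17.4% of all) and spanned it in 4. These signs rest on the scaling. With reads in shared regions as the scale, 9 of 22 were above 0, and with the median ratio of all shared regions, 11 were. By reads per kb of island, scaled to list totals, 0 of 22 were above 0, against 1.65% of all. By unscaled reads per kb, NPC was higher in 6 of 22, against 39.3% of all.

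Of the 5 shared regions with most reads, 2 lay at the end of the chromosome 9 interval. The first, 40142201 to 40156800, had 742 ESC and 752 NPC reads over 10 and 10.2 kb of called island, a log2 of -0.42 (-0.57 to -0.28). The other, 40177001 to 40187200, had 655 and 634 reads over 8.8 kb in each, a log2 of -0.49 (-0.65 to -0.33). In unscaled reads per kb, ESC before NPC, the first had 74.2 and 73.7 and the other 74.4 and 72.0. Scaled to list totals, log2 of reads per kb was -0.45 and -0.49.

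The other 3 lay on chromosome 7. The region 112894801 to 112907800 joined 2 ESC islands and 1 NPC island, with 665 and 800 reads and a log2 of -0.18 (-0.33 to -0.03). The region 114886401 to 114891600, the only shared one of the third stretch, had 501 and 438 reads and a log2 of -0.64 (-0.83 to -0.45). In the region 112580601 to 112591000, a 1.8 kb ESC island with 155 reads met a 10.4 kb NPC island with 730 reads. Its log2 of 1.79 (1.54 to 2.05) was the highest of the 22, whereas by scaled reads per kb it was -0.74. ESC reads in the uncalled part of that region are missing from the ratio. The lowest value, -2.25 (-2.51 to -2.00), was at 112957001 to 112960600, where ESC had 573 reads over 3.6 kb and NPC 164 over 2.2 kb. There density was lower too, 74.5 reads per kb in NPC beside 159 in ESC, a log2 of -1.54 when scaled to island reads.

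**Figure D5:**
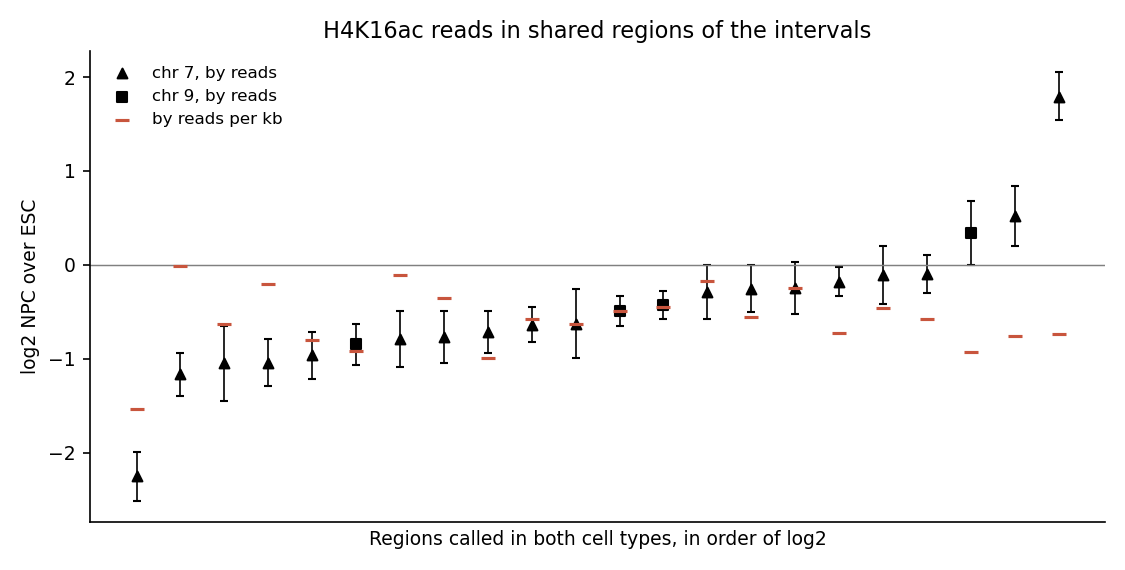
Log2 of NPC over ESC for each of the 22 regions called in both cell types, in rising order, by RPM (black symbols by chromosome, with exact 95% intervals) and by reads per kb on the same scaling (coloured dashes). By reads 3 regions lie above 0, and by reads per kb none does.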

How the data were processed

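H4K16ac islands of 1 ESC and 1 NPC library were used. SICER 1.1, Bowtie 0.12.7, bedtools 2.10.1, CASAVA 1.8.2 and SAMtools 0.1.7 are the tools named in the submitters' processing notes, with mm9 as the build. The deposited lists, whose names give 200 bp windows, 600 bp gaps and 0.01 as the false discovery rate, give each island's position and a whole number, read as the count of its reads as deposited by the authors, without scaling. The treatment of duplicate reads, of reads matching several positions and of the input in the calls is not given in the sources used here. Input libraries were not analysed here. Total depth is unknown. The ESC list holds 17935144 island reads and the NPC list 24386370. No molecular identifiers are named in the sources used here and PCR copies may be among the reads, so intervals cover counting error only.

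Positions were moved by 1 to count from 1. Density is reads per kb of island. Overlap meant at least 1 shared base. Islands that overlap an interval count there and not in the rest of the chromosome. Intervals were exact Poisson for counts, Clopper-Pearson for shares and order statistics for medians, each at 95%. Regions were named by a rule: the 3 islands with most reads and the widest in each interval and list, the densest of each list, the 5 shared regions with most reads and the longest stretch without an island. The lowest shared region by log2, the 3 stretches of chromosome 7, the width classes, the same-length windows and the setting without chromosome 7 were chosen after the values were seen. The intervals and tests were chosen with earlier results of these data known. Alternatives were other overlap rules, minimum widths and reads, joined islands, lists of equal length, shortened intervals, the flanks as comparison and other scalings. The overlap, coverage and ratio code was tested on simulated lists, and overlap counts equalled those of bedtools 2.31.1 (16157 ESC and 16734 NPC islands). Python 3.11.15 with numpy 2.4.6, pandas 2.3.3, scipy 1.17.1 and matplotlib 3.10.9 was used.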

Additional observations from a re-analysis of the deposited data

How the results depend on the processing

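Of 80 recomputed values of 11 results, 63 stayed close to the reported value and 17 did not. Close meant within 1.5 times a reported ratio, or within the interval of a reported median or share. Widths, densities and overlap shares were recomputed for interval islands alone, so their contrasts with the rest were not checked under these settings. A change of sign was looked for only in the median log2 of shared regions, and none was found. With equal list lengths only the NPC list was cut, so ESC number, coverage, width and density could not move. Keeping only islands with at least the median reads of their list left 37 ESC and 27 NPC islands. Islands per Mb as a ratio to the rest then fell in NPC from 0.356 to 0.164 and covered bases from 0.191 to 0.119. Median widths were 4000 bp in ESC and 6600 bp in NPC, densities 96.3 and 73.1 reads per kb, and 13.5% of ESC islands were overlapped. With equal list lengths the NPC width was 3400 bp. Without the chromosome 7 interval, a setting chosen after seeing the data, islands per Mb relative to the rest were 0.240 in ESC (0.438 with it) and 0.207 in NPC. Covered bases were then 0.0938 in ESC (0.218 with it) and 0.103 in NPC, the ESC median width was 1200 bp, the ESC density 154.5 reads per kb, and 12.5% of ESC islands were overlapped. The median log2 of shared regions was -0.15 scaled by reads in shared regions and -0.063 scaled by the median ratio. The cause of these shifts was not tested.

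No paired analysis was possible because each cell type had 1 library. Islands present in a single list depend on the depth of each library, which is unknown, and with 500 kb off both ends the order of the cell types in island number turned on chromosomes 2 and 9 and over the 3 intervals together.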
